A study of Zea mays with 4 samples.

Results

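Plasma membrane intrinsic proteins, the PIP1 and PIP2 aquaporins, were followed in the ear internode of maize. Members were all probe sets whose gene carried a PIP1 or PIP2 name with an isoform number or letter, in the platform annotation or in RefSeq through the gene identifier. This gave 10 of the 1108 named genes on the array, 4 of them PIP1 and 6 PIP2, read by 16 of the 17621 probe sets without controls. A probe set is a group of short array probes designed on one transcript, and its value is a log2 summary of their signals. The tissue was the stem segment that bears the ear, from the inbred line F271, a parent of a recombinant inbred population studied for lignin and cell wall degradability. The plants carried no treatment and stood in a field irrigated through a hot, dry season. Early silking was represented by 2 arrays, from 340 and 400 ng of RNA, and tassel emergence by 2 arrays, from 290 and 440 ng. All RNA was amplified before hybridisation to the Affymetrix maize array. Nothing in the labels says that the replicates of a stage are different plants, and the p-values therefore cover only the spread of these arrays, part of which may be technical.

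Aquaporins are membrane channels that let water, and in some members other small neutral solutes, cross a membrane along its gradient. Those of the plasma membrane control how fast water enters or leaves a cell, and in stems they serve the growth of cells and the exchange of water between the vessels and the living tissue. Maize PIP2 proteins form active water channels when expressed alone in frog oocytes, while PIP1 proteins expressed alone do little. PIP1 proteins assemble with PIP2 partners into mixed tetramers and reach the plasma membrane with them.

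The labelled tissue was checked against genes of secondary walls, which thicken in stem fibres and vessels. All 6 genes of that list (the secondary wall cellulose synthase genes cesa10, cesa11 and CesA12, the COBRA-like gene bk2 and the lignin genes 4CL and BM1) passed the filter described with the members, with list means of 11.44 and 11.10 at early silking and 12.91 and 13.31 at tassel emergence. None of the 6 pollen genes passed the filter, and their highest value was 2.45. Of 7 kernel storage genes, gz27 alone passed. The tassel emergence arrays resembled each other less (r = 0.933 across probe sets) than the early silking arrays (r = 0.967). Tassel emergence replicate 1 stood apart in the control transcripts, as given beside the replicate differences.

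The members were unevenly covered by the array. PIP1 and PIP2 had 8 probe sets each. The locus that RefSeq names both PIP1-3 and PIP1-4 had 5 of them, PIP2-1 and pip2c had more than 1 and the other genes had a single probe set. Tests were limited to probe sets that exceeded a log2 value of 4 on 2 or more arrays, which held for 7 PIP1 and 6 PIP2 probe sets and left out 3. The 3 probe sets left out, of PIP1-3/PIP1-4, PIP2-1 and pip2c, stayed between 1.70 and 2.12 on every array, although another probe set of the same gene passed. Every one of the 10 genes thus had a tested probe set. Those of PIP1-3/PIP1-4, pip2b and pip2c are of types (_a_at, _x_at and _s_at) whose probes are shared between transcripts. A close relative can add to the signal of the _x_at and _s_at types. The _a_at type, that of pip2b, does not by itself show such sharing with a relative. PIP2-1 and PIP2-6 are near neighbours on chromosome 7 in the RefSeq gene order, with 2 genes between them, of which 1 codes for a protein.

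In the PIP1 genes the stages overlapped and no change was detected, which with 2 arrays per stage does not show its absence. PIP1-1 had values of 13.53 and 13.30 at early silking and 13.08 and 13.48 at tassel emergence. The stages overlapped, and early silking minus tassel emergence was 0.13 on the log2 scale (SE 0.24, 95% interval -0.52 to 0.79, limma adjusted p = 0.752). pip1-2, a gene whose product was shown in frog oocytes to work with PIP2 partners, had 13.53 and 13.16 at early silking and 13.24 and 13.60 at tassel emergence. Its change was -0.08 (SE 0.25, limma adjusted p = 0.867), and the stages overlapped again. Both genes were among the brightest of the array, with 98.8% of the 10782 tested probe sets below them in mean value.

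The 4 tested probe sets of PIP1-3/PIP1-4 gave similar values of change. The brightest had 12.06 and 11.59 at early silking and 11.79 and 12.42 at tassel emergence, with overlapping stages and a change of -0.28 (SE 0.33). The other 3 had changes between -0.27 and -0.13. They share a gene and in part the same probes, so they are repeated readings of 1 locus and not separate evidence.

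PIP1-5, an isoform known for high expression in maize roots, had the widest spread of the PIP1 genes. Its values were 9.96 and 9.49 at early silking and 8.68 and 11.19 at tassel emergence, so both early silking arrays lay between the 2 tassel emergence arrays. Means were 9.73 ± 0.34 at early silking and 9.94 ± 1.77 at tassel emergence (SD, n = 2 each). The change of -0.21 had a 95% interval from -2.78 to 2.36. Without tassel emergence replicate 1 the change was -1.46, and without replicate 2 of that stage it was 1.04.

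Among the PIP2 genes, PIP2-4 and PIP2-1 were lower at early silking with no overlap between the stages, and they were the only members without overlap. PIP2-4, an active water channel of maize, had 10.34 and 9.31 at early silking and 11.04 and 11.69 at tassel emergence. Every early silking value was below every tassel emergence value, and the mean was 2.90-fold lower. The change was -1.54 (SE 0.47, 95% interval -2.84 to -0.24, unadjusted p = 0.0306, limma adjusted p = 0.166). It was -2.05 without early silking replicate 1 and -1.02 without early silking replicate 2. PIP2-1, a water channel that also joins PIP1 proteins in mixed tetramers, had 11.46 and 10.85 at early silking and 11.74 and 12.46 at tassel emergence. The gap between the nearest values of the stages was smaller than the difference between the replicates of either stage. Its change was -0.94 (SE 0.37, 95% interval -1.99 to 0.10, limma adjusted p = 0.225), and without tassel emergence replicate 2 it was -0.59.

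**Figure D1:**
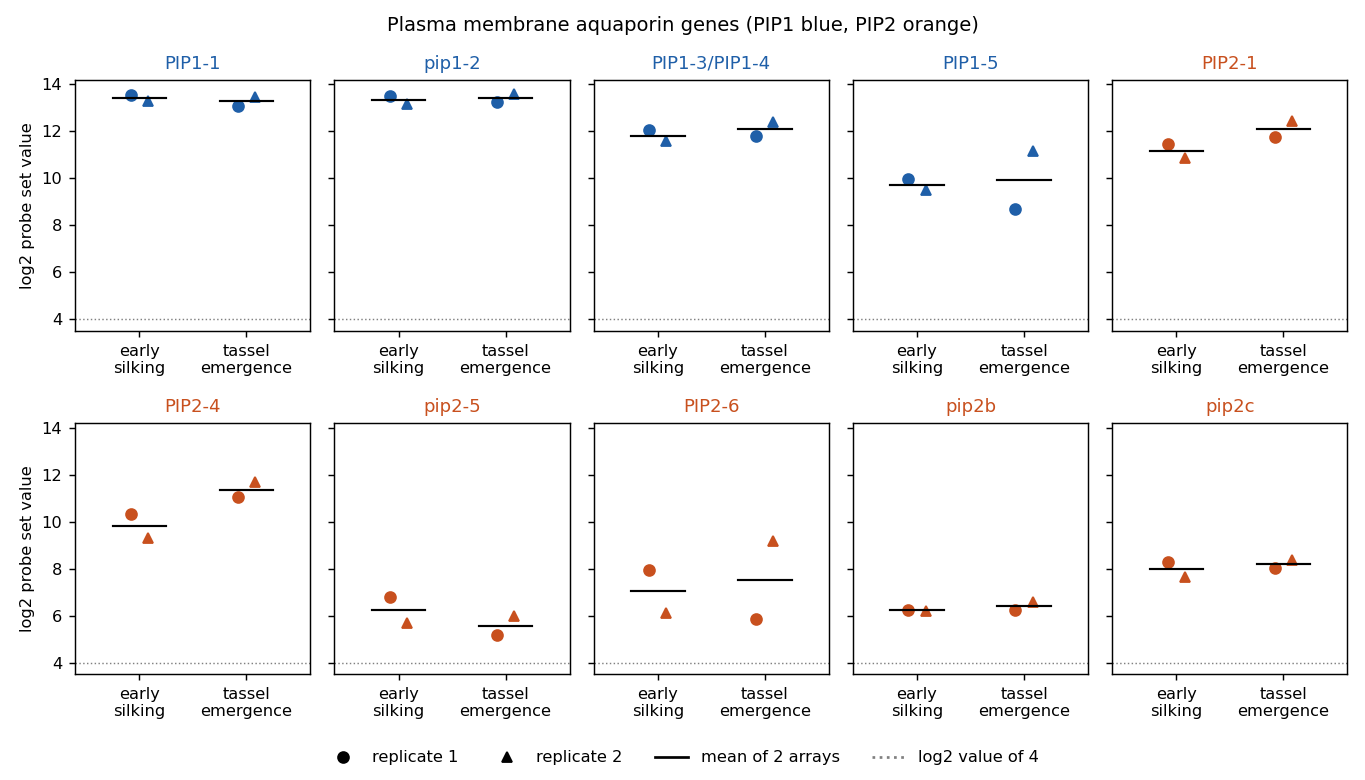
Log2 probe set value (vertical axis) of the 10 PIP genes at early silking and tassel emergence, each gene by its brightest probe set. Circles and triangles are replicates 1 and 2, bars the mean of the 2 arrays and the dotted line a log2 value of 4. The stages separate in PIP2-1 and PIP2-4 alone, and the replicates of PIP1-5 and PIP2-6 are far apart at tassel emergence.

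The remaining PIP2 genes overlapped between the stages. pip2-5, an isoform known from the water-controlling layers of the maize root, was the 1 PIP2 gene with a higher mean at early silking. Its values were 6.81 and 5.69 at early silking and 5.16 and 5.97 at tassel emergence, a change of 0.69 (SE 0.52, limma adjusted p = 0.457). Without early silking replicate 1 that change was 0.12, and without early silking replicate 2 it was 1.25. pip2b, which RefSeq also names ZmPIP2-2, had 6.26 and 6.19 at early silking and 6.24 and 6.58 at tassel emergence, the narrowest range over the 4 arrays among the PIP2 genes. pip2c, also named ZmPIP2-3, had 8.27 and 7.66 at early silking and 8.04 and 8.36 at tassel emergence. The change was -0.19 (SE 0.21) for pip2b and -0.23 (SE 0.30) for pip2c, and that of pip2c was 0.068 without early silking replicate 2. The change of pip2b was -0.35 without tassel emergence replicate 1 and -0.019 without replicate 2 of that stage.

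PIP2-6 varied more between replicates than between stages. It had 7.96 and 6.11 at early silking and 5.84 and 9.18 at tassel emergence, so the highest and the lowest value both came from tassel emergence. Means were 7.03 ± 1.31 at early silking and 7.51 ± 2.36 at tassel emergence (SD, n = 2 each). The change was -0.48 with a 95% interval from -4.30 to 3.34. It was -2.15 without tassel emergence replicate 1 and 1.19 without replicate 2 of that stage. Its neighbour on chromosome 7, PIP2-1, followed the same order of arrays within each stage with much smaller differences. That order is not particular to the neighbours, since all 13 tested members and 37.7% of all tested probe sets had it.

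No member passed an adjusted p of 0.05 (limma, Benjamini-Hochberg over all tested probe sets), and neither did any other probe set, so the share called was 0%. At an unadjusted p under 0.05, 1 of the 13 tested members, PIP2-4, was found, against 24.8% of all tested probe sets. That call held with a filter at 6, quantile values, centred arrays or an intensity trend. It also held with the gap covariate and with the crossed pairs, both described below. The call was lost with the replicate block (unadjusted 0.0529, limma adjusted p = 0.336) and without the filter (unadjusted 0.0589, limma adjusted p = 0.285). It was also lost without early silking replicate 2 (change -1.02) and without tassel emergence replicate 2 (change -1.21). Without early silking replicate 1 (change -2.05) or tassel emergence replicate 1 (change -1.86) it held. Without overlap, 2 of 13 members were lower at early silking, against 24.9% of all tested probe sets, and none was higher, against 34.9%. The mean was lower at early silking in 11 of 13 members, 6 of 7 for PIP1 and 5 of 6 for PIP2, against 42.6% of all. Of the 7 PIP1 probe sets, 4 read the 1 locus PIP1-3/PIP1-4. Counted by gene, the mean was lower in 3 of 4 for PIP1 and 5 of 6 for PIP2, against 363 of 800 named genes. A mean lower by at least 1 on the log2 scale was found for 1 member, PIP2-4, against 10.9% of all. In this fit, which had no covariate, the members' share was at or below that of the array under each rule of separation between the stages. The share with a lower mean was above it. So was the share at an unadjusted p under 0.05 in the fit with the gap covariate, given below. Leaving out either early silking replicate 2 or tassel emergence replicate 2 turned 6 and 7 of the 13 changes to the opposite sign, and leaving out tassel emergence replicate 1 turned that of PIP1-1. With 2 arrays against 2, an exact permutation test of a single gene cannot give a 2-sided p below 0.333.

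**Figure D2:**
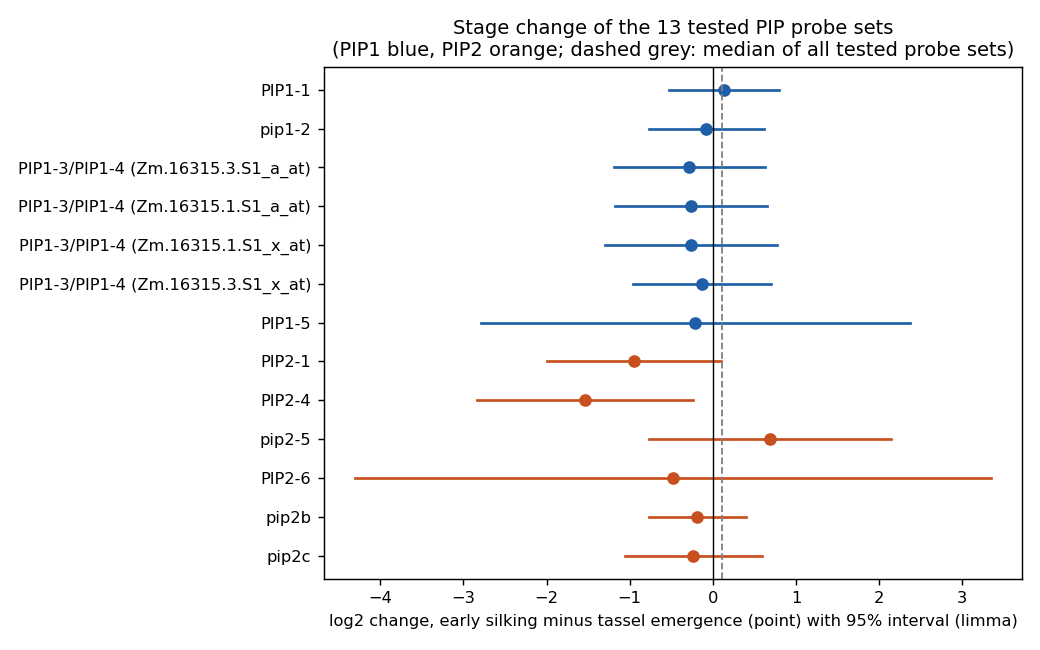
Change in log2 value, early silking minus tassel emergence (horizontal axis), for the 13 tested PIP probe sets, with 95% intervals from limma. PIP1 is blue and PIP2 orange, and the dashed line is the median of all tested probe sets, 0.10. The interval of PIP2-4 is the only one that does not reach 0, and those of PIP1-5 and PIP2-6 are the widest.

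PIP1 and PIP2 were then set side by side. The median change was -0.21 over 7 PIP1 probe sets (range -0.28 to 0.13) and -0.36 over 6 PIP2 probe sets (range -1.54 to 0.69), beside 0.10 over all tested probe sets. With 1 probe set per gene the PIP1 median was -0.14 over 4 genes, and without the probe sets of shared types the medians were -0.08 for PIP1 and -0.71 for PIP2. The PIP1 median was 0.053 without early silking replicate 2 and 0.062 without tassel emergence replicate 2, and the PIP2 median was -0.041 and -0.046 without these arrays. It was -0.89 without early silking replicate 1 and -0.85 without tassel emergence replicate 1, and the PIP1 median was then -0.45 and -0.57. The members are not replicates of a condition, so the difference between the families was given no test.

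Signals of the tested PIP1 probe sets ran from 9.83 to 13.38 and those of PIP2 from 5.91 to 11.63 (means of the 4 arrays), where the median of all tested probe sets was 8.63. The value of a probe set depends on its probes as well as on its transcript, so these ranges do not order the transcripts by abundance. The difference between replicates was larger than in the array as a whole in both families and at both stages. Its median size at early silking was 0.47 for PIP1 and 0.82 for PIP2 probe sets, against 0.26 for all tested probe sets. At tassel emergence it was 0.61 for PIP1 and 0.68 for PIP2, against 0.33 for all. Counted by gene, the 4 PIP1 genes had 0.42 at early silking and 0.51 at tassel emergence, against 0.27 and 0.41 for 800 named genes. For PIP1, these differences exceeded the median stage change in size at both stages, and the same held for PIP2. It also held for all tested probe sets, whose median change was 0.10. The median change is signed, so changes of opposite direction cancel in it, while the replicate differences were taken by size.

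Each PIP2 gene was set against the mean of the 4 PIP1 genes on the same array, to lessen what the families share there. That mean leans on PIP1-5 at tassel emergence, where its replicate 1 minus replicate 2 was -2.51. The same difference was -0.40, -0.35 and -0.63 for PIP1-1, pip1-2 and PIP1-3/PIP1-4. PIP2-4 relative to the mean of the 4 PIP1 genes was -1.93 and -2.57 on the log2 scale at early silking and -0.66 and -0.98 at tassel emergence, a difference of -1.43 with no overlap. PIP2-1 on the same scale was at -0.81 and -1.03 at early silking and 0.04 and -0.22 at tassel emergence, a difference of -0.84, again with no overlap. pip2-5 differed the other way, by 0.80, also with no overlap. It had -5.46 and -6.20 at early silking and -6.54 and -6.70 at tassel emergence. The ratios of PIP2-6, pip2b and pip2c overlapped between the stages and differed by -0.37, -0.08 and -0.12. At tassel emergence the replicates lay closer as ratios than before for PIP2-1, PIP2-4, pip2-5 and PIP2-6. They lay farther apart for pip2b and pip2c, whose ratios there were -5.46 and -6.09 and -3.66 and -4.31. The level of such a ratio depends on the probes, and only its difference between stages is read here. Such ratios were not formed for other genes, so no share over the array stands beside the lack of overlap. Before any ratio, 24.9% of all tested probe sets were lower at early silking without overlap and 34.9% were higher. Averaged over genes, PIP2 minus PIP1 deviations were 0.08 and -0.42 at early silking and 0.14 and 0.20 at tassel emergence.

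Within each stage the members moved together from array to array. All 13 tested probe sets were lower on early silking replicate 2 than on replicate 1 and lower on tassel emergence replicate 1 than on replicate 2, an order found in 37.7% of all tested probe sets. The opposite order was found in no member and in 27.8% of all tested probe sets. The 13 probe sets stand for 10 genes, and relatives can share signal, so they are not independent. At early silking, replicate 1 minus replicate 2 ran from 0.23 to 0.65 for PIP1 and from 0.07 to 1.85 for PIP2 probe sets. At tassel emergence it ran from -2.51 to -0.35 for PIP1 and from -3.34 to -0.32 for PIP2. PIP2-6 had the largest difference of the family at both stages. The medians over all tested probe sets were near 0, at 0.06 and -0.03.

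**Figure D3:**
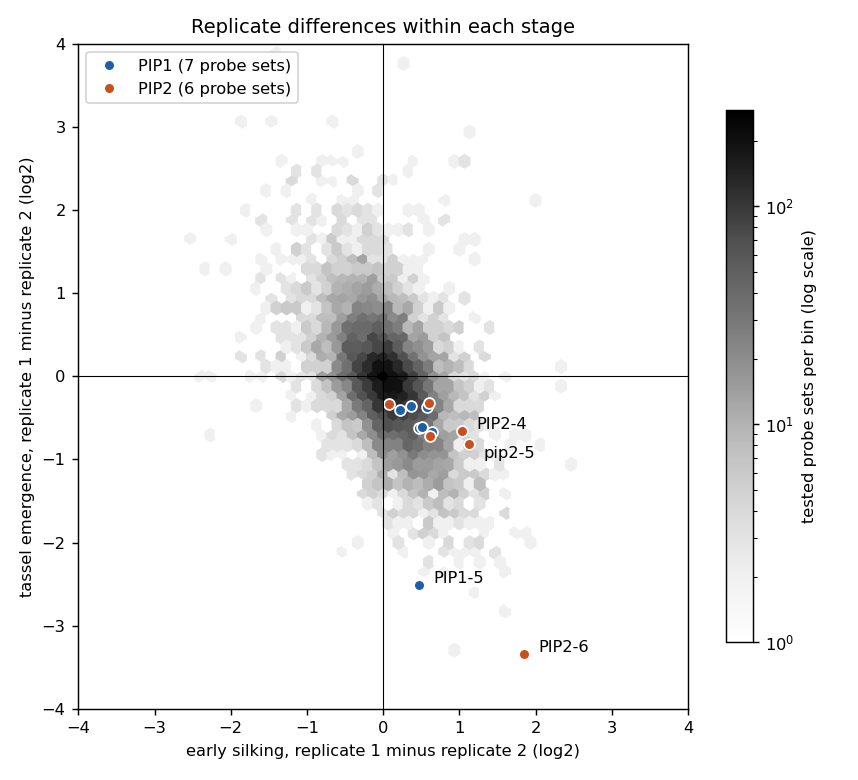
Difference of replicate 1 minus replicate 2 at early silking (horizontal axis) and at tassel emergence (vertical axis), in log2 units. Grey bins count all tested probe sets on a log scale, of which 50 with a difference beyond 4 lie outside the axes. The 7 PIP1 points (blue) and 6 PIP2 points (orange) all lie in the lower right of the plot, with PIP2-6 and PIP1-5 farthest out.

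A technical measure followed the same order within the stages. The gap between the 3' and 5' probe sets of 5 control transcripts, which depends on RNA integrity and on amplification, had means of 1.84 and 2.37 on early silking replicates 1 and 2 and of 4.57 and 2.88 on tassel emergence replicates 1 and 2. In each stage the array with the larger gap had the lower value in all 13 members. Between the stages the order was not the same, since early silking had the smaller gaps and 11 of 13 lower means. With this gap as a covariate, which leaves 1 residual degree of freedom, the median change was -0.93 for PIP1 and -1.21 for PIP2 probe sets, and that of all tested probe sets was 0.05. In the same fit PIP2-4 had -2.39 and PIP2-1 -1.74, with limma adjusted p-values of 0.122 and 0.109. PIP1-5 had -2.53 and PIP2-6 -3.91 there (limma adjusted p = 0.0727 and 0.0748), and PIP1-1 and pip2-5, at -0.28 and -0.33, turned in sign. An unadjusted p under 0.05 (limma) was found in that fit for 5 of 13 members, against 2671 of 10782 tested probe sets, a smaller share. The 5 were PIP2-1, PIP2-4, PIP2-6, PIP1-5 and 1 probe set of PIP1-3/PIP1-4. The part of the gap in the replicate differences was not tested.

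**Figure D4:**
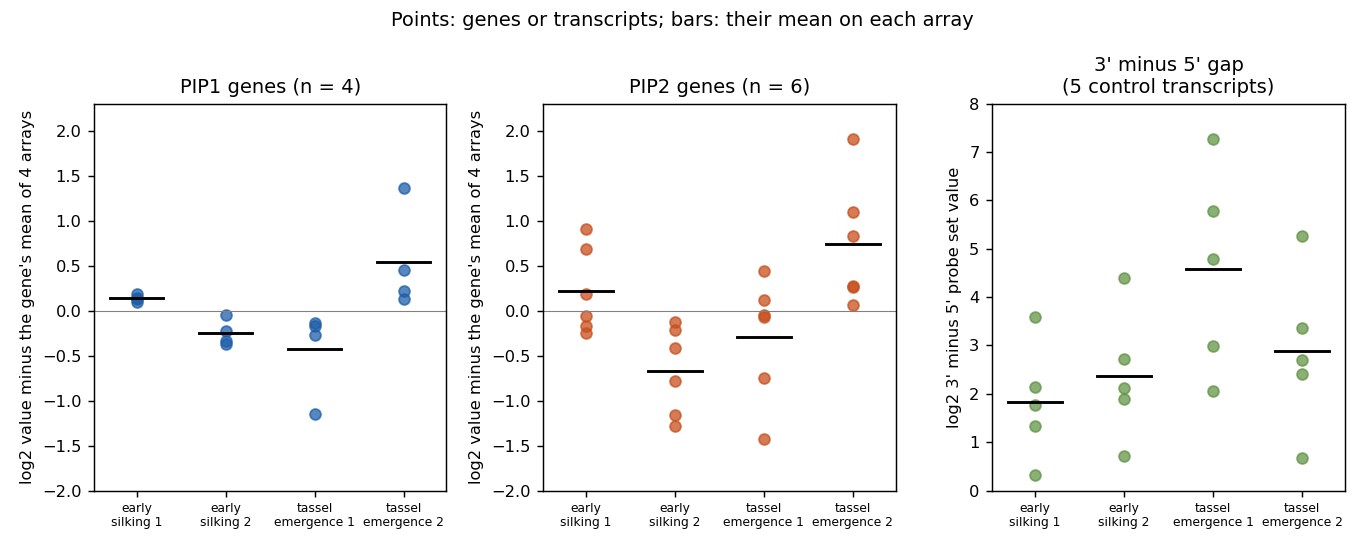
Deviation of each gene from its own mean of the 4 arrays, in log2 units, for 4 PIP1 genes (left) and 6 PIP2 genes (middle), and the gap between the 3' and 5' ends of 5 control transcripts in log2 units (right), by array. Bars are means over the points. The PIP1 and PIP2 means are highest on tassel emergence replicate 2, and the mean gap is highest on tassel emergence replicate 1.

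Markers of green tissue had the members' order within the stages but not their direction between them. Of 8 such genes, among them rbcS of Rubisco and the light-harvesting genes lhcb5 and Cab-m7, 7 had the order of arrays that the PIP members had. That order was found in 37.7% of all tested probe sets. Their means over the list were 12.41 and 11.67 at early silking and 11.29 and 12.04 at tassel emergence, and all 8 passed the filter. All 8 had a higher mean at early silking, against 6193 of 10782 tested probe sets, with a median change of 0.38. Without overlap, 3 of the 8 were higher, against 34.9% of all tested probe sets. Among the PIP genes, 3 of 4 for PIP1 and 5 of 6 for PIP2 had a lower mean. All 6 secondary wall markers had the members' order within the stages too, and all 6 had a lower mean at early silking without overlap, with a median change of -2.12. Lower values without overlap were found in 24.9% of all tested probe sets. Whether the share of green or lignifying tissue differed between the samples was not tested, and in bulk RNA fewer cells of a type and less RNA per cell cannot be told apart.

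The other aquaporins of the array gave a point of comparison. Of 18 TIP, NIP and SIP genes, 11 were tested and 7 stayed at or below 2.74 on every array. Among the 11, 6 had a higher and 5 a lower mean at early silking, with a median change of 0.13, and none passed an adjusted p of 0.05. TIP1-1, a channel of the vacuole membrane, had 9.17 and 8.82 at early silking and 10.99 and 10.99 at tassel emergence, without overlap (change -1.99, limma adjusted p = 0.0864). TIP2-1, also of the vacuole membrane, had a change of -1.11 without overlap. NIP2-1, a relative of the rice silicon channel Lsi1, had the largest higher mean, with a change of 1.41 and overlapping stages, and NIP3-1 had 0.93 without overlap. The order of arrays seen in every PIP member was found in 7 of these 11 genes, against 37.7% of all tested probe sets.

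Genes that set turgor or wall extension were counted in the same way. Of 9 genes for proton pumps, potassium channels and sugar carriers, 5 were tested, 2 with a higher and 3 with a lower mean at early silking and a median change of -0.05. The largest were mha4, a plasma membrane proton pump, at -0.50 and vpp3, a vacuolar proton pyrophosphatase, at 0.41. Of 13 wall loosening genes, expansins and a xyloglucan endotransglucosylase, 7 were tested and 6 of these had a lower mean, with a median of -2.30. Without overlap, 3 of them were lower, namely expB6 with a change of -2.69, expB7 and expA4, against 24.9% of all tested probe sets. At early silking expA4 was at 3.60 and 2.23, below the filter value, and it passed only through tassel emergence, where it had 9.21 and 6.07, so the size of its difference is not read. The counts and the median of the list include it. That median is the change of expB4, whose stages overlapped, with 4.62 and 4.51 at early silking and 9.61 and 4.11 at tassel emergence. Of 5 water deficit genes, 4 were tested and 3 had a lower mean, with a median of -1.11. Among those 3, asr1 had a change of only -0.014. vp14 was below the filter value on both early silking arrays and passed only through tassel emergence, so the size of its difference is not read. No gene of these lists passed an adjusted p of 0.05.

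For each PIP gene the named gene with the most similar profile was sought among 790 others, by the root mean square difference over the 4 arrays after removing each gene's own mean. tub3, a beta-tubulin, was nearest to PIP2-4 with a difference of 0.11, where the median over all candidates was 0.95. Gln1-4, a cytosolic glutamine synthetase, was nearest to PIP2-1 at 0.07. PIP2-6 was nearest to hsp101, a heat shock chaperone, at 0.24, and PIP1-5 to NNR1, a nitrate reductase, at 0.23, the largest distances of the family. pip2-5 was nearest to orp1, a tryptophan synthase gene, at 0.09. For PIP1-1, pip1-2, pip2b and pip2c the nearest were sat3, ESMT1, emp2 and stv3, at 0.03 to 0.05, and for PIP1-3/PIP1-4 it was LOC541617 at 0.06. With 4 arrays such profiles hold few independent values, and no test was made.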

How the data were processed

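The authors deposited log2 probe set summaries made with GCRMA, per the submitters' processing notes. That method estimates nonspecific binding from the bases of each probe and then equalises the arrays, so low values are compressed towards a floor. No version is given in the sources used here. Values between 1.36 and 15.29 show that the scale is log2. Of 17734 probe sets, 113 controls were left out and 10782 were tested (log2 value above 4 on at least 2 of 4 arrays). No depth applies to arrays, and precision is limited by their number. Names came from the platform annotation and RefSeq (Zm-B73-REFERENCE-NAM-5.0), which gave a gene for 1452 probe sets.

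Early silking minus tassel emergence was fitted across all tested probe sets with limma 3.58.1 in R 4.3.3 (lmFit, eBayes, 2-sided, Benjamini-Hochberg adjusted p under 0.05, prior degrees of freedom 1.95), without a replicate term, and tested on simulated data. Where a gene had several probe sets, the one with the highest mean stood for it. Members and lists were chosen with earlier results of these data known. All PIP probe sets were named, and in other lists at most the 3 largest changes in each direction. The within-array ratios and the order of replicates were added after the values were seen.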

Additional observations from a re-analysis of the deposited data

How the results depend on the processing

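The count past an adjusted p of 0.05 was 0 as reported, with the replicate block, without a filter, with a filter at 6, with quantile values, centred arrays, an intensity trend or the gap covariate, or without any 1 array. With the replicate block 1594 probe sets had an unadjusted p under 0.05, against 2679, and the PIP medians stayed at -0.21 and -0.36. Replicate differences of the stages correlated at -0.42 across tested probe sets, so crossed pairs were added as a block after the data were seen. With that block 357 probe sets passed, none of them a PIP member. An unadjusted p under 0.05 was then found for 3 of 13 PIP members, against 3553 of 10782 tested probe sets, a larger share. Without early silking replicate 1 or 2 the unadjusted count was 1339 or 1216. With the 3' minus 5' gap as covariate, PIP1-1 was at -0.28 and pip2-5 at -0.33, both turned in sign, and the medians were -0.93 for PIP1 and -1.21 for PIP2. Leaving out each array in turn gave medians from -0.57 to 0.062 for PIP1 and from -0.89 to -0.041 for PIP2. It gave changes from -0.065 to 0.33 for PIP1-1, -0.26 to 0.11 for pip1-2, -1.46 to 1.04 for PIP1-5, -2.15 to 1.19 for PIP2-6 and -0.54 to 0.068 for pip2c. For the 4 PIP1-3/PIP1-4 probe sets the ranges were -0.60 to 0.032, -0.57 to 0.041, -0.60 to 0.062 and -0.42 to 0.16. The range for pip2b was -0.35 to -0.019. The sign held in PIP2-1, PIP2-4 and pip2b under all of these alternatives. The cause of these shifts was not tested. The limma adjusted p of PIP2-4 was 0.0542 with the crossed pairs, the block added after the data were seen. In the other fits on all 4 arrays it ran from 0.122 (gap covariate) to 0.336 (replicate block). Without probe sets of shared types the PIP1 median was -0.08 and the PIP2 median -0.71.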

Other observations

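Of the 4 tested water deficit genes, asr1 and dhn2 were higher on early silking replicate 2 than 1 and on tassel emergence replicate 1 than 2. That order was found in 27.8% of all tested probe sets and in no PIP member. CCD, a carotenoid dioxygenase gene, had 10.66 on both early silking arrays, so its order there is not read. At tassel emergence it had 9.71 and 10.66, with replicate 1 lower as in the PIP members. dhn2, a dehydrin gene of the kind that accumulates in drying tissue, had 9.80 and 11.29 at early silking and 13.31 and 12.20 at tassel emergence. vp14, the gene of a dioxygenase that makes the precursor of abscisic acid, was at 3.55 and 3.65 at early silking, both below the filter value, so its order there is not read, and at 10.04 and 6.23 at tassel emergence. dhn1, another dehydrin gene also named rab17, was not tested and exceeded a log2 value of 4 on 1 array, with 1.94 and 1.97 at early silking and 6.62 and 1.95 at tassel emergence. These genes were chosen after their values were seen, and whether their order and that of the aquaporins are related was not tested.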
